A study of Mus musculus with 75 samples.

Results

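Oxidative phosphorylation is the step in which mitochondria pass electrons along complexes I to IV to oxygen and use the resulting proton gradient to make ATP at complex V. Its genes are described here across 75 RNA-seq libraries labelled as enteric glial cells, the glia of the gut's own nervous system. All symbols of the deposited count tables that begin with mt-, Nduf, Uqcr, Cox4 to Cox8 or Atp5, or that are one of the subunits Sdha to Sdhd, were taken as members. That gave 106 genes, 13 encoded in the mitochondrial genome (mt- genes) and 93 nuclear, of 21051 symbols in the table of untreated and 2 h libraries and 21076 in the table of 24 h libraries. The nuclear members comprise 39 Nduf genes of complex I, 8 Ndufaf genes for its assembly factors, 4 Sdh genes of complex II, 8 Uqcr genes of complex III, 18 Cox4 to Cox8 genes of complex IV and 16 Atp5 genes of complex V.

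The libraries came from adult mice that carry a green fluorescent reporter, shared by all groups, and every group holds males and females. Untreated reporter mice gave the myenteric plexus (MP, the ganglia between the muscle layers) of the colon in 5 libraries and of the small intestine (SI) in 6, and the submucosal plexus (SMP, the ganglia under the mucosa) of the colon in 5 and of the SI in 6. In the 2 h experiment, reporter mice received 1 intraperitoneal dose of 2 mg/kg LPS (lipopolysaccharide, here from E. coli O111:B4) or PBS (saline), and MP of the SI and of the colon gave 4 libraries per treatment. The 24 h experiment used the same dose and MP only, in reporter mice with the labels Gpr37WT (WT) and Gpr37-/- (KO, lacking the receptor gene Gpr37). It comprises WT PBS (6 SI, 4 colon), WT LPS (4 SI, 5 colon), KO PBS (4 SI, 5 colon) and KO LPS (5 SI, 4 colon) libraries from numbered mice. How the cells were collected is not given in the sources used here, nor is it stated whether a library holds 1 animal, except at 24 h where a mouse number is given.

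Mitochondria hold their own small circular genome, which is transcribed as long precursors and encodes core subunits of complexes I, III, IV and V, while complex II and the remaining subunits are encoded in the nucleus, translated in the cytosol and imported. Complex I takes electrons from NADH, complex II takes them from succinate, complex III hands them through cytochrome c to complex IV, which reduces oxygen, and complex V is the ATP synthase. Several complex IV subunits exist as a broadly expressed isoform and as one typical of muscle, testis or low oxygen.

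Library totals ran from 2547296 to 9002546 counts in untreated libraries, from 1990744 to 7883251 at 2 h and from 2882539 to 33283346 at 24 h. Gpr37 itself gave 1229 counts in the 19 WT libraries at 24 h and 18 counts in the 18 KO libraries, with 3 counts or fewer in 17 of the KO and in 4 of the WT libraries. The glial markers Sox10, S100b and Gfap were detected in every group. In untreated mice the log2 fold change of SMP over MP was -3.36 ± 0.40 in SI and -2.39 ± 0.42 in colon for S100b, -4.71 ± 0.46 and -3.14 ± 0.47 for Gfap, and -3.39 ± 0.58 and -1.55 ± 0.59 for Sox10, all called except Sox10 in colon (adjusted p = 0.0653). In bulk libraries like these, fewer cells of a type and less RNA per cell cannot be told apart. A gene was called where its p, from the quasi-likelihood test of edgeR and adjusted over all tested genes by Benjamini-Hochberg, was under 0.05, which gives every adjusted p below unless another test is named.

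Of the 13 mt- genes, 8 carried nearly all counts. Per kilobase of annotated exon, the median level in untreated libraries was 21390 CPM (counts scaled to a common library size after edgeR's TMM normalization) for mt-Cytb (cytochrome b of complex III), 19210 for mt-Co1 (the oxygen-reducing subunit of complex IV) and 11310 for mt-Nd1, and 3790, 3753, 2271 and 2030 for mt-Nd4, mt-Nd2, mt-Nd5 and mt-Nd6, all membrane subunits of complex I. The lowest of the 8 was mt-Nd3, with 402.9 CPM per kb in untreated, 1318 at 2 h and 238.6 at 24 h. The other 5, mt-Co2, mt-Atp8, mt-Atp6, mt-Co3 and mt-Nd4l, had at most 7 counts in any library and were not tested. These genes lie side by side on the mitochondrial genome with the genes of high count, and they encode subunits of complexes IV, V and I.

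Sequence comparison showed which mt- genes also exist nearly letter for letter in the nuclear genome. Annotated unprocessed pseudogenes between positions 24611535 and 24616197 of chromosome 1 (GRCm38, GENCODE M21) repeat a stretch of the mitochondrial genome, and none of them is a symbol of the count tables. Of all 50-base windows of each mt- gene, the share found unchanged in an annotated nuclear copy was 100% for mt-Co2, 99.5% for mt-Atp6, 99.9% for mt-Co3, 98.8% for mt-Nd4l and 98.0% for mt-Nd3. It was 62.2% for mt-Nd4, 51.1% for mt-Co1, 8.19% for mt-Nd2, 7.61% for mt-Nd5 and 0.0% for mt-Nd1, mt-Nd6, mt-Cytb and mt-Atp8. The last of these, mt-Atp8, had no shared window but lies at M:7766-7969 between mt-Co2 and mt-Co3 and overlaps mt-Atp6. How reads that match more than 1 place were counted is not given in the sources used here, and whether the low counts come from it was not tested. The start of mt-Co2 and of mt-Atp6, a stretch of mt-Nd4 in which sharing ends, and the starts of mt-Nd1 and mt-Cytb show the contrast, read 5′ to 3′ from GRCm38 on the plus strand, with bases that lie in a shared 50-base window in capitals.
mt-Co2, chrM:7013-7072: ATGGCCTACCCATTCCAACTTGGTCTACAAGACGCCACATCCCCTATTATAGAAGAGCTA
mt-Atp6, chrM:7927-7986: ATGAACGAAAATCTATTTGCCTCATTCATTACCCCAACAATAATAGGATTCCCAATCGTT
mt-Nd4, chrM:11003-11082: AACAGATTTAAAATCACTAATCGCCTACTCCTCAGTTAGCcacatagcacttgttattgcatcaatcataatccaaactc
mt-Nd1, chrM:2751-2810: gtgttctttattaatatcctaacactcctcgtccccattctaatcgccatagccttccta
mt-Cytb, chrM:14145-14204: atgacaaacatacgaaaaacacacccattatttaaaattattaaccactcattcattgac

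**Figure D1:**
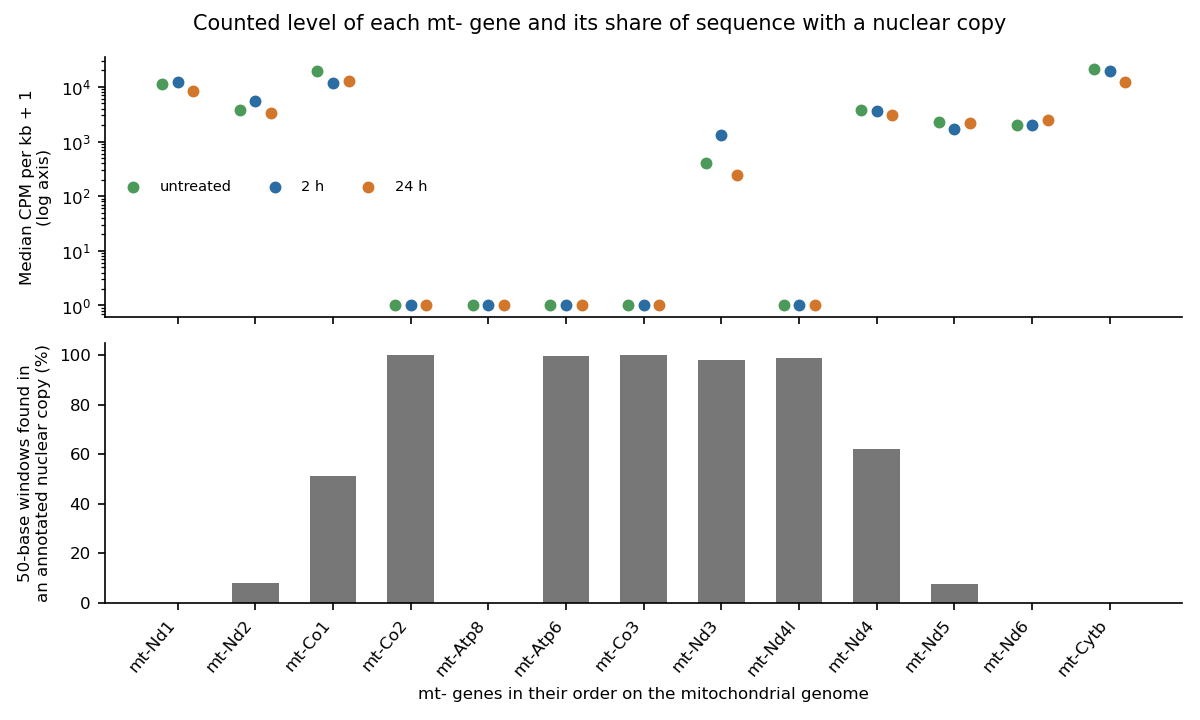
Top, median CPM per kb plus 1 (log axis) of each mt- gene in untreated, 2 h and 24 h libraries. Bottom, the percent of its 50-base windows found in an annotated nuclear copy, with genes in their order on the mitochondrial genome. Of the genes near the floor, mt-Co2, mt-Atp6, mt-Co3 and mt-Nd4l have 98.8% to 100% of windows shared and mt-Atp8 has 0.0%.

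The values of the mt- genes below therefore rest on 6 genes of complex I, 1 of complex III and 1 of complex IV, and no mitochondrially encoded subunit of complex V could be followed. Of the 93 nuclear members, 89 were tested in the untreated and in the 2 h experiment and 90 at 24 h. Those left out for low counts were Cox7b2, Cox6a2 and Cox8c, isoforms of testis or striated muscle, and, in the first 2 experiments, Atp5g2, which encodes a c-ring subunit of the ATP synthase. Among nuclear members the highest level in untreated libraries was 508.2 CPM per kb of annotated exon for Cox8a. Next were 438.9 for Cox4i1 and 406.8 for Cox6b1, all broadly expressed subunits of complex IV. This order depends on the annotated exon length of each gene. The levels of Cox8a, Cox4i1 and Cox6b1 are all below those of the tested mt- genes except mt-Nd3.

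Promoters of the nuclear members held motifs of factors known for respiratory genes more often than promoters in general. RefSeq promoters on GRCm38.p6, 250 bases before to 50 after a start, matched 74 of the 93 members. These motifs were searched on both strands, and a stretch could count under more than 1 name. The letters were GCGC, any 2 bases and GCGC again (NRF1, a nuclear respiratory factor), CCGGAAG (ETS family, including GABP), AAGGTCA (ERR, estrogen-related receptors) and GCCATNTT (YY1). NRF1 letters occurred in 27.0% of members against 7.0% of 27025 genes, ETS letters in 25.7% against 9.93%, ERR letters in 10.8% against 5.38% and YY1 letters in 24.3% against 6.96%. At least 1 motif was found in 67.6% of members and 25.3% of all genes. A match describes letters and not a bound site. Promoters of 6 genes the results below turn on are printed with matches in capitals. Sdhd (minus strand) holds NRF1, ETS and ERR matches, Uqcrc1 (plus strand) holds 2 NRF1 matches, Ndufs3 (minus strand) holds 2 ETS matches, and Cox5a (plus strand), Uqcrfs1 (minus strand) and Cox8b (minus strand) hold none.
Sdhd, chr9:50603800-50604099: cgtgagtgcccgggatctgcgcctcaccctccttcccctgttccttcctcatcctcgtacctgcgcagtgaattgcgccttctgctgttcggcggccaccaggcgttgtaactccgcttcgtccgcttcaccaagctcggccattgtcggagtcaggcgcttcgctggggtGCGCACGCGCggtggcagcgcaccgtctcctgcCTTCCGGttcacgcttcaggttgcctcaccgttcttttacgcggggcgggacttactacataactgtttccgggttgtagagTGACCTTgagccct
Uqcrc1, chr9:108936398-108936697: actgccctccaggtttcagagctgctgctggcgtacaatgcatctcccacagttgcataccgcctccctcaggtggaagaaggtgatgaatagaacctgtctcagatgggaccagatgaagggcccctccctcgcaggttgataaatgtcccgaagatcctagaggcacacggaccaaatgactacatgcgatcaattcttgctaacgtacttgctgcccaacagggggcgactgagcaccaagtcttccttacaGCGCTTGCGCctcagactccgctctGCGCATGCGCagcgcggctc
Ndufs3, chr2:90904672-90904971: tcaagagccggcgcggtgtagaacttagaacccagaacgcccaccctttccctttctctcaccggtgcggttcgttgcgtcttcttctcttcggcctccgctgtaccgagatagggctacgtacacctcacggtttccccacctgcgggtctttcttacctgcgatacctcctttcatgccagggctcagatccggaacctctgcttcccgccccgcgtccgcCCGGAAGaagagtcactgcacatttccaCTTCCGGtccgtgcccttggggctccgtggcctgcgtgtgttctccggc
Cox5a, chr9:57520982-57521281: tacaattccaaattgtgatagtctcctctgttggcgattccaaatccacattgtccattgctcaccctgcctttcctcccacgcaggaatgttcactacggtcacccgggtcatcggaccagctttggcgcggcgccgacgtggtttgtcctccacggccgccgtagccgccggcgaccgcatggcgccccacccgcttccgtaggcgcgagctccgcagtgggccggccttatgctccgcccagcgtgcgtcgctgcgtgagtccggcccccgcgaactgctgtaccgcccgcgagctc
Uqcrfs1, chr13:30545267-30545566: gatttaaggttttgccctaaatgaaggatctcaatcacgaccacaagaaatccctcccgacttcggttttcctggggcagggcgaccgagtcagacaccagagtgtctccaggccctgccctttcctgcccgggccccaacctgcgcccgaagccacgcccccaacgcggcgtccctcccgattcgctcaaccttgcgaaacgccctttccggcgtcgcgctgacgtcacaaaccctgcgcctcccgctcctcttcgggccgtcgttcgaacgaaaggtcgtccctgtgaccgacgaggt
Cox8b, chr7:140900397-140900696: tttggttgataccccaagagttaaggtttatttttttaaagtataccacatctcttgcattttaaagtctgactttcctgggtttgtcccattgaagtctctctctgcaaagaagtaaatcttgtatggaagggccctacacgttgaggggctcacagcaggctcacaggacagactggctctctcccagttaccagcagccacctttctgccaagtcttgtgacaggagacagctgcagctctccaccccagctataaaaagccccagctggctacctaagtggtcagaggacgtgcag

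The share of a library's counts that fell on the mt- genes varied far more than the share on the nuclear genes. In untreated mice the mt- share was 11.59% to 18.82% (median 16.02%, n = 6) in SI MP and 2.84% to 9.43% (median 6.32%, n = 6) in SI SMP, with no overlap. In the colon it was 5.35%, 6.54%, 10.44%, 14.67% and 16.45% in MP and 4.02%, 5.01%, 5.38%, 6.08% and 7.18% in SMP, so the lower 2 MP libraries lay within the SMP range. The nuclear share went the other way, with a median of 1.349% in SI MP, 1.84% in SI SMP, 1.24% in colon MP and 2.32% in colon SMP. The colon MP library of female 3 had the highest nuclear share (2.08%) and the lowest mt- share of its group.

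At 2 h the median mt- share was 7.62% after PBS and 7.37% after LPS in SI, and 2.58% and 4.91% in colon, with ranges of 1.76% to 8.04% and 2.88% to 8.17% that overlapped in the colon. At 24 h the median ran from 3.91% (SI, KO PBS) to 9.05% (colon, WT LPS), and all 8 groups overlapped between 4.88% and 6.12%. Single groups reached from 1.66% to 18.97% (SI, WT PBS) or from 3.11% to 25.97% (colon, KO PBS). The nuclear share at 24 h was 1.07% to 3.65% over all 37 libraries.

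**Figure D2:**
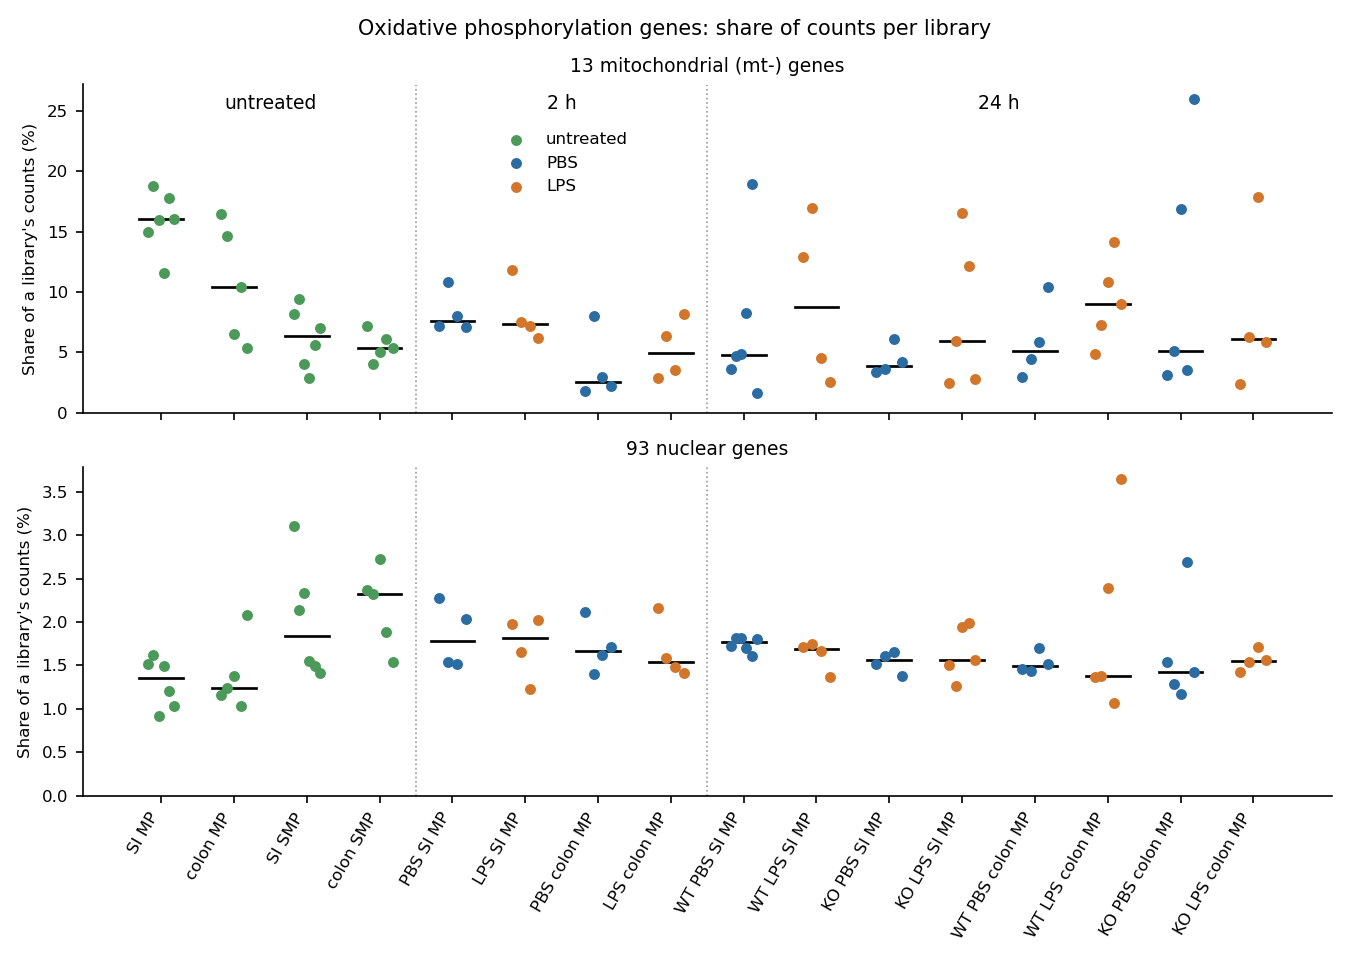
Share of each library's counts (%) on the 13 mt- genes (top) and the 93 nuclear genes (bottom) in the 16 groups, 1 point per library, green untreated, blue PBS and orange LPS, with a black line at each median. Untreated SI MP libraries (11.59% to 18.82% on mt- genes) lie above SI SMP (2.84% to 9.43%), and 24 h groups span wide, overlapping ranges.

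Most calls among these genes were between the plexus layers of untreated mice, where mt- genes were lower and nuclear genes tended to be higher in SMP than in MP. In SI all 8 tested mt- genes fell and in colon 7 of 8 fell, with median log2 fold changes of -1.57 and -1.18. Of 89 nuclear members 28 rose and 1 fell in SI (median 0.53, 78 above 0), and 11 rose and 1 fell in colon (median 0.54, 80 above 0). The median of all 14090 genes tested was 0.06 in SI and -0.01 in colon. Over all genes, 22.3% were called higher and 21.2% lower in SI, and 10.7% higher and 11.1% lower in colon, so the 11 of 89 nuclear genes called higher in colon lie near that background. The 11 nuclear genes called in both regions make up 11 of the 12 called in colon and 11 of the 29 called in SI, and Ndufc2, an accessory subunit of complex I, was called in colon alone. The same overlap was not counted over all genes, so whether it is particular to the members is not known. These layers share no library between the regions, but the numbers of calls in SI and colon were not tested against each other.

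Cytochrome b illustrates the mt- genes. In colon its 5 MP libraries had 15260, 19920, 32760, 47510 and 55250 CPM of mt-Cytb and its 5 SMP libraries 10700, 13570, 14740, 16440 and 20700 CPM. In SI it ran from 37490 through a median of 56000 to 63700 CPM in MP and from 8357 through 19540 to 29740 CPM in SMP, which do not overlap, whereas the colon groups do. The log2 fold change was -1.50 ± 0.34 (SE, adjusted p = 0.00114) in SI and -1.16 ± 0.37 (adjusted p = 0.0266) in colon, and the colon call was lost without MP male 1, MP male 2, SMP male 3, SMP female 1 or SMP female 3 (adjusted p from 0.0534 to 0.0845).

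The complex I genes of the mitochondrial genome moved further than mt-Co1. In colon mt-Nd2 had 3305, 4320, 5872, 9049 and 10260 CPM in MP and 1969, 2129, 2230, 2481 and 2541 CPM in SMP, with every MP library above every SMP library. Its log2 fold change was -1.53 ± 0.32 in colon (adjusted p = 0.00232) and -1.89 ± 0.30 in SI (adjusted p = 4.0e-05). The others called were mt-Nd4 (-1.57 ± 0.34 in colon, -1.65 ± 0.31 in SI), mt-Nd5 (-1.20 ± 0.33 and -1.63 ± 0.30), mt-Nd6 (-1.21 ± 0.33 and -1.74 ± 0.31), mt-Nd1 and mt-Nd3. For mt-Co1 the change was -1.12 ± 0.32 in SI (adjusted p = 0.00669), and in colon the value of -0.73 ± 0.34 did not pass (adjusted p = 0.133). Of the 8 genes, mt-Nd6 is the one encoded on the opposite strand of the mitochondrial genome.

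The medians of the nuclear classes were lowest for the assembly factors and highest for complex III in both regions. Complex I subunits had a median log2 fold change of 0.38 in colon and 0.42 in SI with 2 and 7 of 39 called higher, while none of the 8 Ndufaf assembly factors was called (medians 0.20 and 0.20). Complex II had medians of 0.62 and 0.64 with 2 and 3 of 4 called, complex III 0.78 and 0.85 with 2 and 5 of 8, complex IV 0.68 and 0.53 with 2 and 5 of 15 called higher and 1 lower, and complex V 0.75 and 0.79 with 3 and 8 of 15. These classes were not tested against each other.

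Sdhd and Sdhb of complex II were called in both regions. Sdhd, a membrane anchor of succinate dehydrogenase, had 59.9, 79.0, 144, 147 and 176 CPM in colon MP and 117, 171, 295, 391 and 469 CPM in colon SMP, which overlap. In SI it ran from 54.4 through 104 to 145 CPM in MP and from 107 through 253 to 599 CPM in SMP. The log2 fold change was 1.25 ± 0.43 in colon (adjusted p = 0.0406) and 1.43 ± 0.39 in SI (adjusted p = 0.0056), and in colon leaving out any of 6 libraries (MP males 2 and 3, MP female 2, SMP male 1, SMP females 1 and 2) gave an adjusted p of 0.0574 to 0.12. Sdhb, the iron-sulfur subunit that passes electrons within the complex, rose by 0.71 in both regions on the log2 scale.

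In complex III, Uqcrfs1, the Rieske iron-sulfur protein that takes electrons from ubiquinol, had 117, 142, 184, 199 and 337 CPM in colon MP and 269, 352, 364, 457 and 564 CPM in colon SMP. Its log2 fold change was 1.03 ± 0.30 (adjusted p = 0.0163) there and 1.12 ± 0.27 (adjusted p = 0.00216) in SI, where the groups did not overlap (109 to 259 CPM and 296 to 639 CPM). Uqcrc1, a core protein of the complex, ran from 209 through 253 to 311 CPM in SI MP and from 428 through 479 to 733 CPM in SI SMP, also without overlap (1.09 ± 0.25, adjusted p = 0.00137). Uqcrc2, the second core protein, was called in both regions, by 0.99 ± 0.26 in colon and 1.05 ± 0.24 in SI.

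In complex IV the called genes with the largest rises were Cox5a, a subunit that sits beside the mitochondrially encoded core, and Cox7b, a small membrane subunit. Cox5a had 108, 119, 141, 142 and 334 CPM in colon MP and 243, 397, 475, 495 and 571 CPM in colon SMP. All but the highest MP library, female 3, lay below every SMP library. The log2 fold change was 1.37 ± 0.33 (adjusted p = 0.00542), and in SI it was 1.19 ± 0.30 (adjusted p = 0.00271). Cox7b gave 1.27 ± 0.40 (adjusted p = 0.0277) in colon and 1.25 ± 0.37 (adjusted p = 0.00852) in SI, and its colon call was lost without MP male 1, MP male 2, MP female 2, SMP male 1 or SMP female 1 (adjusted p from 0.0504 to 0.0772). In complex V, Atp5f1 (the b subunit of the stator stalk) had 183, 194, 206, 216 and 366 CPM in colon MP and 327, 392, 440, 443 and 534 CPM in colon SMP. It rose by 0.87 ± 0.23 in colon and by 1.08 ± 0.21 in SI, and Atp5g1, a c-ring subunit, by 1.08 ± 0.36 in colon (adjusted p = 0.0345). That last call was lost when any of 7 of the 10 libraries was left out (MP males 1, 2 and 3, MP female 2, SMP males 1 and 3, SMP female 1), with an adjusted p from 0.0586 to 0.0837.

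The one nuclear gene that fell was Cox8b, the complex IV isoform typical of heart, skeletal muscle and brown fat. In colon it had 7.18, 10.1, 13.9, 16.6 and 24.4 CPM in MP, and 0 counts in 4 SMP libraries and 2 counts in the SMP library of male 3. SI MP libraries had 0.606 to 13.0 CPM (median 6.18), and 5 of 6 SI SMP libraries had 0 counts and the other 2. Every MP library was above every SMP library in both regions, with adjusted p values of 0.000294 in colon and 6.8e-05 in SI, and no fold is given because the SMP level is at the floor of counting. Other isoforms of muscle, testis or low oxygen did not pass. Cox6b2 (testis) gave -0.89 ± 0.70 in colon and -0.91 ± 0.66 in SI, Ndufa4l2 (low oxygen) 0.74 ± 0.60 and -0.60 ± 0.55, Cox7a1 (muscle) 0.53 ± 0.61 and 0.97 ± 0.56, and Cox4i2 (lung, low oxygen) 2.01 ± 0.95 and -0.20 ± 0.84. Cox4i2 was called in colon once MP female 3 was left out (3.09, adjusted p = 0.0261). Of their 7 broadly expressed counterparts, all had values above 0 in both regions, with Cox7b called in both, Cox6b1 in SI (0.80 ± 0.28, adjusted p = 0.0262) and the others (Cox4i1, Cox6a1, Cox7a2, Cox8a, Ndufa4) in neither. The SI call of Cox6b1 was lost without SMP male 1, MP male 3 or MP female 3 (adjusted p from 0.0507 to 0.115).

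**Figure D3:**
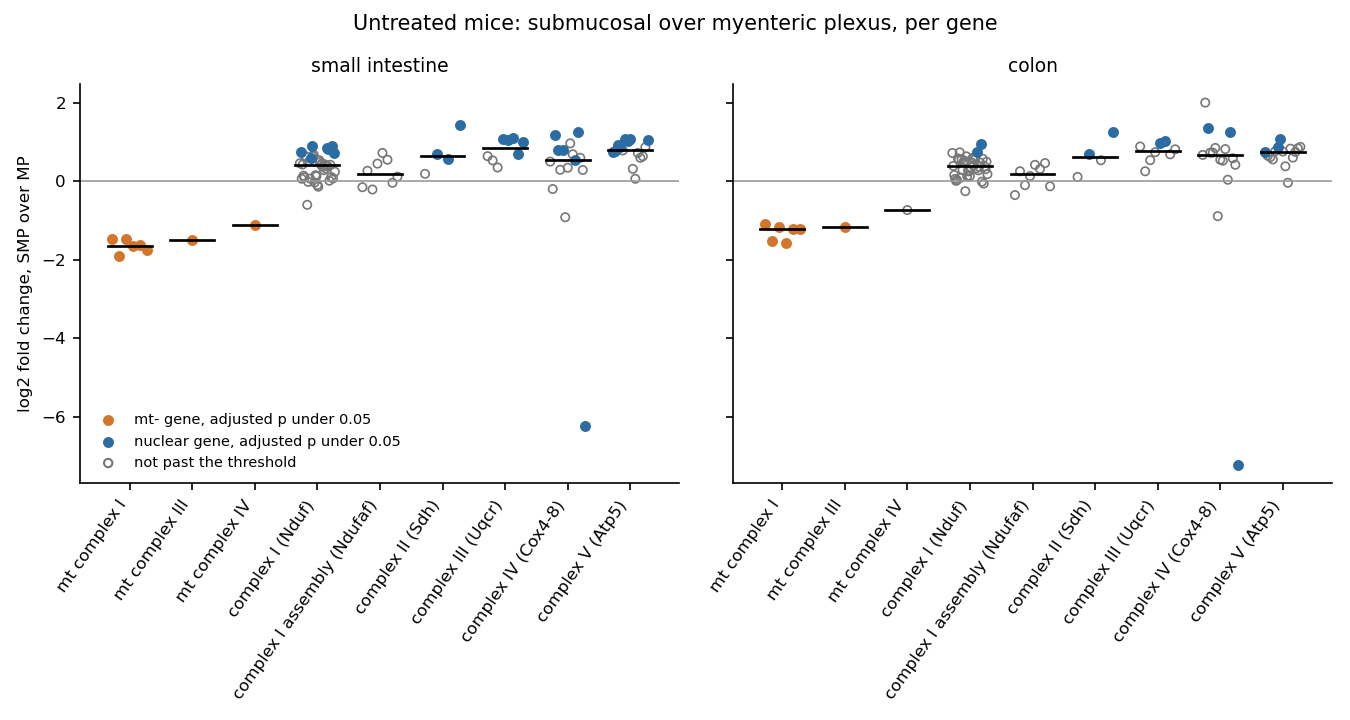
Log2 fold change of SMP over MP per gene in untreated colon and SI, by complex, filled points past an adjusted p of 0.05 (orange mt- genes, blue nuclear genes) and open points not, with a black line at each median. The mt- genes sit between -1.89 and -0.73, most nuclear genes lie above 0, and Cox8b is the lowest filled point of each panel, at a fitted value that depends on the prior count and is no fold.

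Genes that feed or serve the chain are read against the 10.7% of all genes called higher in colon and 22.3% in SI. Cyc1 (cytochrome c1 of complex III) rose in both regions (0.91 ± 0.31 in colon, 1.14 ± 0.28 in SI), whereas Cycs (cytochrome c) was not called. Of 16 genes of the tricarboxylic acid cycle, 6 rose in colon and 5 in SI, among them Fh1 (fumarase, 0.80 ± 0.21 and 1.21 ± 0.19), Cs (citrate synthase, 0.81 ± 0.22 and 0.89 ± 0.20) and, in SI, Mdh2 (malate dehydrogenase, 0.94 ± 0.21). Of 7 carriers and porins of the mitochondrial membranes, 3 rose and 1 fell in each region. Slc25a4, the ADP/ATP carrier typical of muscle, was the one that fell (-1.31 ± 0.17 in colon, -1.73 ± 0.16 in SI), and Slc25a5, the carrier of dividing cells, rose (1.84 ± 0.30 and 2.11 ± 0.28), as did Ucp2 and Vdac2.

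Regulators and mitochondrial RNA factors are read against the same shares of all genes. Of 9 tested nuclear regulators none was called in colon and 2 in SI, Esrra (an estrogen-related receptor, 1.34 ± 0.34) and Hif1a (the hypoxia factor, 0.95 ± 0.27). Of 14 tested genes for the upkeep and transcription of mitochondrial DNA none was called in colon and 1 in SI, Tfam, which packages that DNA (0.73 ± 0.19). Among 15 tested genes for processing mitochondrial RNA, Tbrg4 and Fastkd2 rose in both regions, Tbrg4 by 2.08 ± 0.54 in colon and 2.01 ± 0.49 in SI. Assembly factors of complexes III and IV had 1 (Coa4) and 4 (Coa4, Bcs1l, Cox15, Cox16) of 23 called, all higher. Of the nuclear members called higher in SMP in either region and matched to a promoter, 14 of 22 (63.6%) held at least 1 of the motifs, against 35 of 50 other tested members (70.0%).

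Markers of other cell types differed between the layers in the same libraries. Genes with at least 1 count numbered 13360 to 14280 in SI MP and 14490 to 16050 in SI SMP, and 13140 to 14110 and 14180 to 15000 in colon, without overlap. RNAs retained in the nucleus (Malat1, Neat1, Meg3, Kcnq1ot1) summed to medians of 3730 and 2400 CPM in SI MP and SMP and 2910 and 1860 in colon. Summed over 6 epithelial markers (Epcam, Cdh1, Vil1, Krt8, Krt20, Lgr5), all detected in each untreated group, the level was 4.9 to 151 CPM in SI MP, 949 to 4020 in SI SMP, 3.93 to 1340 in colon MP and 1180 to 4490 in colon SMP. The 6 lymphocyte markers ran from 6.96 to 1100 CPM in SI MP and 14300 to 132000 in SI SMP, and from 4.71 to 307 in colon MP (Cd3e and Trac at 0) and 734 to 45100 in colon SMP. The 7 macrophage markers had medians of 837 and 7230 CPM in SI MP and SMP and 206 and 2730 in colon. Moving the other way, the 7 smooth muscle markers were 1200 to 8430 CPM in SI MP and 75.9 to 1080 in SI SMP, and 7120 to 22900 and 806 to 3300 in colon, and the 9 neuronal markers had medians of 1350 and 81.2 CPM in SI and 293 and 76.2 in colon. With the mean log2 levels of the epithelial and of the immune markers as covariates, an alternative added after the data were seen, no member was called in either region, and 3 of all 14090 genes in colon and 2 in SI. The nuclear median was then 0.00 in colon and -0.06 in SI, and the mt- median was -1.02 and -1.38. These markers nearly follow the layer, so this fit can hardly separate layer from markers and does not decide between them. With the mean log2 level of the smooth muscle markers as a covariate, also added later, 11 nuclear genes were called in colon and 28 in SI, and 0 and 6 mt- genes. Of all 14090 genes, 987 were called in colon and 3688 in SI. Smooth muscle markers do not overlap between the layers either, so the same limit holds. The mt- median was then -1.05 in colon and -1.47 in SI, with 4 and 7 of 8 at an unadjusted p under 0.05, and the nuclear median was 0.91 and 0.86. Which cells carried the transcripts was not tested further.

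A single library weighed on the colon comparison. MP female 3 had 1340 CPM of epithelial markers, against 3.93 to 123 CPM in the other 4 colon MP libraries, and left out it gave 28 nuclear genes higher, 1 lower (Cox8b) and all 8 mt- genes lower. Of 97 tested members, 37 were then called instead of 19. Calls rose over all genes too, to 4045 of 14296, against 10.7% higher and 11.1% lower with every library. Without MP male 2 or SMP female 1 the count was 12.

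Between the colon and the SI no member passed the test in untreated mice. In MP 0 of 89 nuclear and 0 of 8 mt- genes were called by edgeR and 0 by DESeq2, while 4 nuclear and 3 mt- genes had an unadjusted p under 0.05 and 3.19% of all genes were called. The mt- genes all lay below 0, with a median of -0.62, led by mt-Nd6 (-0.89 ± 0.32, adjusted p = 0.137) and mt-Nd2 (-0.76 ± 0.31, adjusted p = 0.194). Neuronal markers were 164 to 412 CPM in colon MP and 758 to 2680 in SI MP, and fibroblast markers 2290 to 9210 and 909 to 1730. Smooth muscle markers had medians of 14200 and 2790 CPM, and the part of these cells was not tested. Among nuclear genes the smallest p belonged to Cox6b2 (1.59 ± 0.67, adjusted p = 0.221) and Ndufab1, the acyl carrier protein of complex I (0.64 ± 0.27, adjusted p = 0.223). In SMP 5.18% of all genes were called and again 0 members by either tool, with a median of 0.02 for nuclear and -0.31 for mt- genes. Cox6b2 was 1.62 ± 0.68 there (adjusted p = 0.202), Cox4i2 1.48 ± 0.88 (adjusted p = 0.411) and mt-Nd4 was -0.47 ± 0.32 (adjusted p = 0.495).

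At 24 h, over all 37 libraries, 7.72% of genes differed between colon and SI and 0 members were called by edgeR, with 6 nuclear genes at an unadjusted p under 0.05. DESeq2 called 3. The smallest p belonged to Cox7a2l, a factor that joins complexes III and IV (0.33 ± 0.11, adjusted p = 0.0567), and Ndufa6, a complex I subunit (0.38 ± 0.13, adjusted p = 0.0633). The mt- median was 0.36, the opposite sign to untreated MP, and no mt- gene had an unadjusted p under 0.05. With the 3 MP libraries above 1000 CPM of epithelial markers left out, 5 members (Ndufa4, Cox5a, Atp5b, Atp5d, Cox6a1) were called lower in colon, with Ndufa4 at -0.45 (adjusted p = 0.0113). Of all genes, 1407 of 15090 were called in that fit, so the 5 calls do not exceed the background.

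LPS at 2 h moved no member past the threshold. In SI 1.1% of all genes were called and 0 of 89 nuclear and 8 mt- genes, by edgeR or DESeq2, with 1 nuclear gene at an unadjusted p under 0.05. In colon 0.778% of genes were called and again 0 members by either tool, with 1 nuclear gene at that unadjusted p. Nuclear medians were -0.02 in SI and 0.03 in colon, and mt- medians 0.13 and 0.59. The smallest p in each region belonged to assembly factors of complex I, Ndufaf1 in SI (-0.95 ± 0.41, adjusted p = 0.816) and Ndufaf8 in colon (-0.75 ± 0.31, adjusted p = 0.55). Next were Sdhd in SI (-0.44 ± 0.26, adjusted p = 1.0) and Ndufaf3 in colon (0.60 ± 0.38, adjusted p = 0.897). For mt-Cytb the median was 24870 CPM after PBS and 25470 after LPS in SI, and 7475 and 16650 in colon with ranges of 4547 to 26180 and 8285 to 27480 CPM.

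After 24 h of LPS in WT mice, Ndufs3, a core subunit of complex I that lines the electron path from NADH, was the member that rose in both regions. In WT SI it ran from 60.9 through 70.9 to 74.0 CPM after PBS (n = 6) and was 86.9, 150, 159 and 193 CPM after LPS. In WT colon it was 58.6, 66.8, 70.1 and 71.3 CPM after PBS and 106, 118, 132, 176 and 178 CPM after LPS. No LPS library overlapped a PBS library in either region. The regions are not independent, because LPS mice 3, 8, 13 and 16 and PBS mice 14, 19, 22 and 24 gave both. The log2 fold change was 1.11 ± 0.24 in SI (adjusted p = 0.00336) and 1.09 ± 0.26 in colon (adjusted p = 0.00932).

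In KO mice the same gene was 60.1, 62.3, 68.4 and 71.0 CPM after PBS and 56.2, 72.3, 84.0, 96.96 and 132 CPM after LPS in SI, where the groups overlap. In KO colon it was 58.8, 59.5, 66.2, 67.5 and 86.9 CPM after PBS and 54.5, 75.3, 82.3 and 171 CPM after LPS, and it was not called in either KO comparison. The difference in response between genotypes was -0.67 ± 0.35 in SI (unadjusted p = 0.0633 and adjusted p = 1.0 in edgeR's interaction term) and -0.59 ± 0.36 in colon (adjusted p = 0.487), so the genotypes were not shown to differ.

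In WT SI the other called member was Ndufaf2, an assembly factor of complex I. It ran from 11.7 through 17.7 to 24.7 CPM after PBS and was 2.05, 5.40, 7.21 and 13.0 CPM after LPS, so that the highest LPS library lay within the PBS range. The change of -1.33 ± 0.39 (adjusted p = 0.032) was lost when any of 7 of the 10 libraries was left out (LPS mice 3, 13 and 16, PBS mice 19, 22, 23 and 24), with an adjusted p from 0.0521 to 0.125. Those 2 calls of 90 nuclear genes, 1 higher and 1 lower, stand against 4.18% of all genes called higher and 2.99% lower. The nuclear median was 0.10 and the median of all genes -0.13, and the 8 mt- genes had a median of 0.58 with none called and none at an unadjusted p under 0.05. That median was 0.00 without LPS mouse 8 and 1.25 without PBS mouse 9.

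In WT colon 4 nuclear members rose and 2 fell, against 3.96% of all genes higher and 4.0% lower. The nuclear median was 0.45, with 78 of 90 above 0 and 38 at an unadjusted p under 0.05, and complex III was highest among the classes (median 0.74, all 8 above 0). The 8 mt- genes lay between 0.36 and 0.98 (median 0.76), none called and none at an unadjusted p under 0.05. Uqcrfs1 was 143, 167, 180 and 186 CPM after PBS and 215, 265, 265, 349 and 739 CPM after LPS, without overlap (1.12 ± 0.29, adjusted p = 0.014). Uqcrq, a small subunit of complex III, was 142, 152, 154 and 194 CPM after PBS and 146, 192, 196, 623 and 835 CPM after LPS (1.31 ± 0.39, adjusted p = 0.0324). LPS mice 3 and 8 carry its rise, while the other 3 LPS libraries lay near the PBS libraries. Ndufv1, the complex I subunit that binds NADH, was 123, 127, 145 and 148 CPM after PBS and 202, 207, 227, 233 and 283 CPM after LPS (0.76 ± 0.20, adjusted p = 0.0183).

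Both genes that fell in WT colon are isoforms. Cox6b2 was 11.1, 20.1, 20.8 and 29.2 CPM after PBS and 0, 0.364, 2.12, 3.48 and 3.80 CPM after LPS (-3.33 ± 0.73, adjusted p = 0.00502). Ndufa4l2, a paralogue of Ndufa4 known to rise in low oxygen, was 19.4, 26.3, 26.4 and 27.4 CPM after PBS and 0, 1.46, 2.36, 3.12 and 3.18 CPM after LPS (-3.59 ± 0.92, adjusted p = 0.0142). Neither gene's groups overlapped. Cox8b (-3.01 ± 0.98, adjusted p = 0.0519) and Cox4i2 (-2.61 ± 1.25, adjusted p = 0.188) did not pass, nor did Cox7a1 (0.66 ± 0.97). In WT SI all 5 tested isoforms of that list had values below 0 and none passed, with Cox7a1 at -3.13 ± 1.06 (adjusted p = 0.0668) and Cox6b2 at -2.06 ± 0.72 (adjusted p = 0.076). The 7 broadly expressed counterparts had values above 0 in both regions, from 0.03 to 0.27 in SI and from 0.27 to 0.92 in colon, and none was called. Smooth muscle markers summed to a median of 2910 CPM (857 to 7140) after PBS and 896 (601 to 3100) after LPS in WT colon, and fibroblast markers to 12100 (8780 to 14000) and 2380 (276 to 6580). There, markers of interstitial cells of Cajal ran from 151 to 457 CPM after PBS and from 24.5 to 150 after LPS. Endothelial markers had medians of 430 and 114. Neutrophil markers summed to medians of 0.347 and 63.0 CPM in WT colon and 0.231 and 737 in WT SI. In WT SI, smooth muscle markers had medians of 2470 and 1080 CPM, fibroblast markers 5270 and 2790, and mesothelial markers ran from 471 to 2280 after PBS and from 144 to 317 after LPS, without overlap. Their part in these values was not tested.

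The nuclear rise in WT colon moved with epithelial and immune markers in 2 libraries. LPS mice 3 and 8 had 3240 and 4710 CPM of epithelial markers, while the lowest and the median of the group were 4.67 and 6.19 CPM. They also had the highest neutrophil (2310 and 1960 CPM) and lymphocyte markers (2740 and 1400 CPM) of the group. Their glial markers were the lowest (1040 and 2200 CPM), and the parts of these marker sets cannot be told apart. The nuclear shares of mice 3 and 8, 2.39% and 3.65%, were the highest of the group. With both left out together with KO PBS colon mouse 20 (4680 CPM of epithelial markers), the nuclear median went from 0.45 to -0.10 with 26 of 90 above 0. That alternative was added after the data were seen. The 3 members then called all fell, Cox6b2 (-3.83), Ndufv3 (-0.93) and Ndufc1 (-0.80). Of all genes, 722 of 15090 were called in that fit, so the 3 calls do not exceed the background. No longer past the threshold were Ndufs3 at 0.83 (adjusted p = 0.078), Ndufv1 at 0.65 (adjusted p = 0.0846), Uqcrfs1 at 0.56 (adjusted p = 0.0898), Uqcrq at 0.15 (adjusted p = 0.841) and Ndufa4l2 at -3.23 (adjusted p = 0.0713). The number of calls was 19 without LPS mouse 5, 14 without LPS mouse 13 and 12 without LPS mouse 16. Uqcrq was no longer called without LPS mouse 3, LPS mouse 8 or any one PBS library (adjusted p from 0.0555 to 0.143), Uqcrfs1 without LPS mouse 8 (0.70, adjusted p = 0.0759) or PBS mouse 22 (adjusted p = 0.0554), and Ndufv1 without PBS mouse 14 (adjusted p = 0.0522) or PBS mouse 19.

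Mouse number also touches the WT colon comparison, because no PBS library there has a mouse number of 10 or below and 3 of 5 LPS libraries do. Among mice 11 and above alone, the WT LPS libraries of both regions come only from mice 13 and 16. Ndufs3 was then 0.93 in WT colon and 0.88 in WT SI and was called in both, as was Ndufa4l2 (-3.33 and -1.96). Cox6b2 (-3.19) and Cox8b (-2.27) were called in colon, and Cox7a1 (-3.54) and Ndufaf2 (-1.50) in SI. In colon 3 calls were lost there, Uqcrq (0.30, adjusted p = 0.57), Uqcrfs1 (0.67, adjusted p = 0.104) and Ndufv1 (0.72, adjusted p = 0.052), and 4 members were called. With the division as a covariate, Ndufs3 stayed called in both (0.83 and 0.94), and Cox6b2 (-2.95) and Uqcrfs1 (0.97) in colon. No longer called were Ndufaf2 in SI (-1.27, adjusted p = 0.0503) and, in colon, Uqcrq (0.86, adjusted p = 0.163), Ndufv1 (0.67, adjusted p = 0.0508) and Ndufa4l2 (-2.91, adjusted p = 0.0607).

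**Figure D4:**
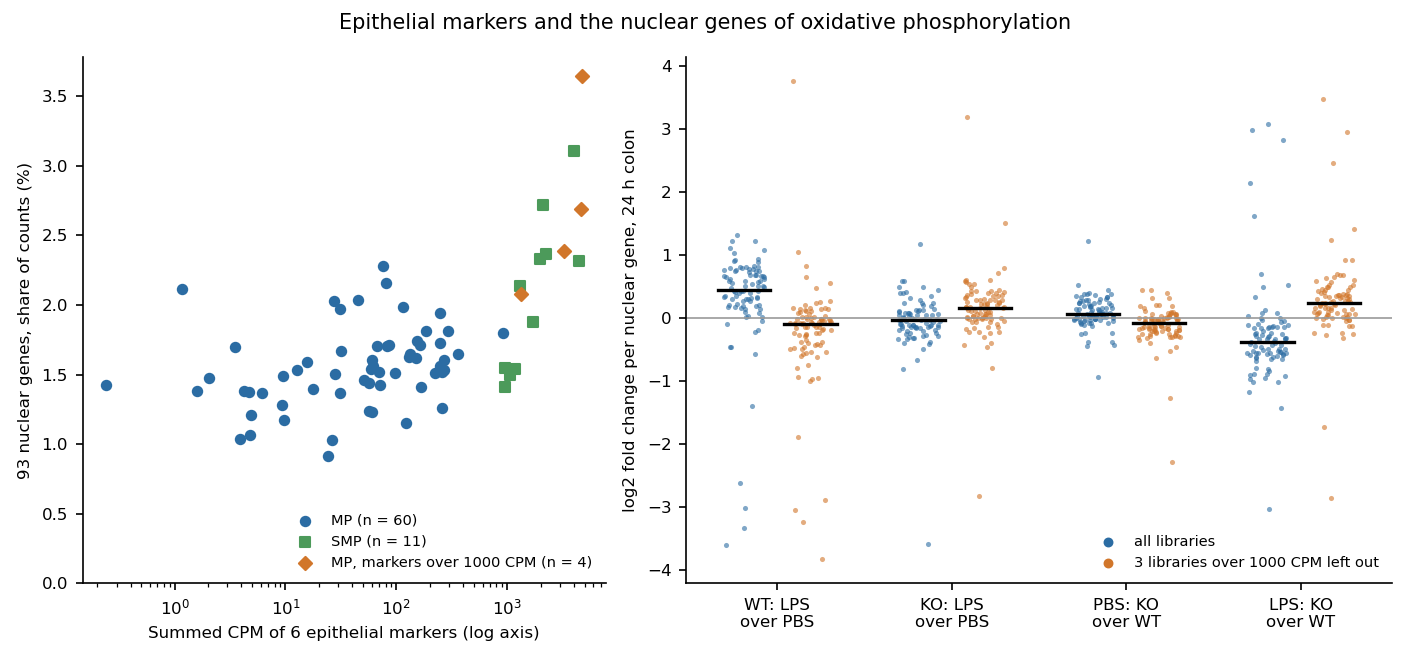
Left, nuclear share of counts (%) against summed CPM of 6 epithelial markers (log axis) in every library, blue MP, green SMP and orange the 4 MP libraries above 1000 CPM. Right, log2 fold change of each nuclear gene in 4 comparisons of 24 h colon with all libraries (blue) and with 3 libraries left out (orange), black lines at the medians. The median of WT LPS over PBS goes from 0.45 to -0.10.

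Other pathway genes after 24 h of LPS in WT mice are read against 4.18% of all genes called higher and 2.99% lower in SI, and 3.96% and 4.0% in colon. Hif1a rose in both regions (1.70 ± 0.34 in SI, 1.49 ± 0.37 in colon). In SI, 2 of 23 assembly factors fell, Cox20 (-0.79 ± 0.22) and Coa6 (-1.57 ± 0.48), as did 2 of 15 genes of mitochondrial RNA processing, Lrpprc, which stabilises mitochondrial messenger RNA (-1.26 ± 0.37), and Rexo2 (-0.71 ± 0.20). In colon 1 of 23 assembly factors fell, Uqcc2 (-1.11 ± 0.28). Cycs (1.16 ± 0.34), 1 of 7 carriers and porins (Slc25a5, 1.37 ± 0.43), 1 of 15 genes of mitochondrial RNA processing (Fastkd3, 1.67 ± 0.52) and 2 of 16 of the tricarboxylic acid cycle list (Cs, 0.91 ± 0.25, and Pdhb of pyruvate dehydrogenase, 0.75 ± 0.17) rose. No gene for the upkeep of mitochondrial DNA was called in either region.

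In KO mice LPS at 24 h gave no call among the members. In SI 0.718% of all genes were called, 0 members by edgeR or DESeq2 and 2 nuclear genes at an unadjusted p under 0.05, with Ndufb1-ps at 0.93 ± 0.31 (adjusted p = 0.17) and Uqcrfs1 at 0.68 ± 0.28 (adjusted p = 0.315). The 8 mt- genes had a median of 1.02 and mt-Co1 was 1.17 ± 0.76 (adjusted p = 0.621). Mice 6 and 10 among the LPS libraries had mt- shares of 12.17% and 16.57%, the other 3 had 2.43%, 2.76% and 5.95%, and the 4 PBS libraries 3.37% to 6.12%, and the median was 0.44 without mouse 10. In colon 0.718% of genes were called, 0 members by edgeR, 1 by DESeq2 (Cox7a1, -3.61, adjusted p = 0.00643 in DESeq2) and 3 nuclear genes at an unadjusted p under 0.05. Cox7a1 was -3.59 ± 1.10 in edgeR (adjusted p = 0.135), Ndufc2 was 0.59 ± 0.23 (adjusted p = 0.284), and Cox6b2 and Ndufa4l2 were -0.28 ± 0.68 and -0.39 ± 0.85. The mt- median was -0.49, with 37 of 90 nuclear genes above 0. Without the epithelial library of KO PBS mouse 20 these were -0.75 and 66 of 90, and without LPS mouse 2 or PBS mouse 7 the mt- median was -1.33 or 0.34.

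Loss of Gpr37 gave no call among the members by edgeR in any of 4 comparisons. After PBS, 0.0% of all genes were called in SI and 0.0% in colon, 0 members by either tool and none at an unadjusted p under 0.05. The mt- medians were -0.67 in SI and 1.01 in colon. In SI the median was 0.02 without WT PBS mouse 9, which had an mt- share of 18.97%, and in colon it was 0.16 without KO PBS mouse 7. In colon the KO PBS libraries of mice 1 and 7 had mt- shares of 16.89% and 25.97% and the other 3 had 3.11%, 3.51% and 5.08%, while WT PBS (2.97% to 10.42%) holds no mouse of 10 or below. The smallest p belonged to Ndufaf6 (-0.70 ± 0.52) and Atp5h (-0.26 ± 0.24) in SI and to Uqcrc2 (0.44 ± 0.28) and Ndufa6 (0.39 ± 0.26) in colon, each with an adjusted p of 1.0. After LPS in SI 0.0134% of genes were called and 0 members by either tool, with 3 nuclear genes at an unadjusted p under 0.05. Ndufs3 and Ndufaf2 had the smallest p there (-0.74 ± 0.25, adjusted p = 0.422, and 0.89 ± 0.40, adjusted p = 0.583). The KO and WT groups share their LPS libraries with the comparisons above, so these values are not independent of them.

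After LPS in colon 0.429% of genes were called, 0 members by edgeR and 6 by DESeq2, and 25 nuclear genes had an unadjusted p under 0.05. The nuclear median was -0.37 with 14 of 90 above 0. Cox6b2 was 4.44, 9.28, 11.53 and 38.3 CPM in KO and 0 to 3.80 CPM in WT, without overlap, and its value of 2.98 ± 0.72 had an adjusted p of 0.0515. Ndufs4, a complex I subunit, was -0.92 ± 0.27 (adjusted p = 0.0997). Both were called without WT LPS mouse 16 (3.30, adjusted p = 0.0396, and -1.07, adjusted p = 0.041), and Cox6b2 also without KO LPS mouse 2 (3.10, adjusted p = 0.0496). Leaving out the epithelial libraries turned the nuclear median to 0.24 with 75 of 90 above 0 and 0 calls. Of the pathway lists, Pdhb alone was called (-0.73 ± 0.17, adjusted p = 0.0409).

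For the difference in LPS response between genotypes, 0.0% of all genes passed in SI and 0.0% in colon. No member passed by edgeR, with 1 nuclear gene in SI and 16 in colon at an unadjusted p under 0.05, and DESeq2 called 0 and 2. In colon Cox6b2 was 3.05 ± 0.98 (adjusted p = 0.186) and Cox7a1 -4.25 ± 1.45 (adjusted p = 0.209), and the nuclear median of -0.49 turned to 0.31 without the epithelial libraries. In SI Ndufaf2 was 1.28 ± 0.55 (adjusted p = 1.0).

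Across the 24 h libraries the mt- share differed between low and high mouse numbers. Mice numbered 10 and below had a mean mt- share of 13.6% ± 5.27 (SD, n = 6) in SI and 15.8% ± 6.02 (n = 6) in colon, and mice 11 and above 4.19% ± 1.82 (n = 13) and 5.17% ± 2.23 (n = 12). That division was chosen earlier from the mt- share itself, so the mt- values are a description and carry no test. The 8 mt- genes had a median log2 difference of 1.83 in SI and 1.92 in colon, from 1.71 to 2.14 and from 1.74 to 2.56. What sets low and high mouse numbers apart (litter, day or preparation) is not given in the sources used here.

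The nuclear genes were compared across that division. It was chosen from the mt- share of the same libraries, so the p-values below describe the split and are no independent test. In SI 1.72% of all genes and 0 of 90 nuclear members were called by edgeR, with 32 at an unadjusted p under 0.05 and a median of 0.29. DESeq2 called 12, and the share of all genes it called is not given here. In colon 1.77% of genes were called and 0 nuclear members by either tool, with 16 at an unadjusted p under 0.05 and a median of 0.39. In both regions 79 of 90 nuclear genes lay above 0. The smallest p in SI belonged to Cox4i2 (-2.61 ± 0.72, adjusted p = 0.0736), called without WT PBS mouse 9 (-4.25, adjusted p = 0.0072), and Sdhb (0.42 ± 0.13, adjusted p = 0.112). In colon it belonged to Ndufs8 (0.59 ± 0.23, adjusted p = 0.241), an iron-sulfur subunit of complex I, and Ndufb2 (0.94, adjusted p = 0.244). The median nuclear share was 1.73% against 1.65% in SI and 1.57% against 1.49% in colon, where the highest low-numbered library, WT LPS mouse 8 with 4710 CPM of epithelial markers, had 3.65%.

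Depth and markers of other cells differed across the division as well. Median genes detected were 13630 in low-numbered and 14720 in high-numbered SI libraries and 12740 and 14130 in colon, and median totals 5849000 and 9309000 counts in SI and 5069000 and 9102000 in colon. Fibroblast markers summed to 199 to 2460 CPM in low-numbered and 1400 to 8930 in high-numbered SI libraries, and to 276 to 4400 and 5780 to 14000 in colon, with medians of 1210, 5570, 949 and 10800. Endothelial markers had medians of 107 and 363 CPM in SI and 103 and 446 in colon, neuronal markers 4000 and 1570 in SI and 1220 and 542 in colon, and epithelial markers 101 and 225 in SI and 76.9 and 32.2 in colon. Immune markers were higher in median in low-numbered libraries, with 44.3 and 15.2 CPM of lymphocyte markers in SI and 720 and 5.79 in colon, 156 and 0.804 of neutrophil markers in SI and 155 and 5.34 in colon, and 1090 and 344 of macrophage markers in SI and 640 and 336 in colon. Their part in the mt- share was not tested. Exceptions within a mouse were seen too. Of 22 mice, 15 gave both regions and the colon had the higher mt- share in 9. Mouse 7 (KO PBS) had 25.97% in colon and 4.24% in SI, where the mouse number of the SI library comes from its sample name alone. By contrast, mouse 3 (WT LPS) had 10.87% and 12.87% and mouse 8 (WT LPS) 9.05% and 16.94%.

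**Figure D5:**
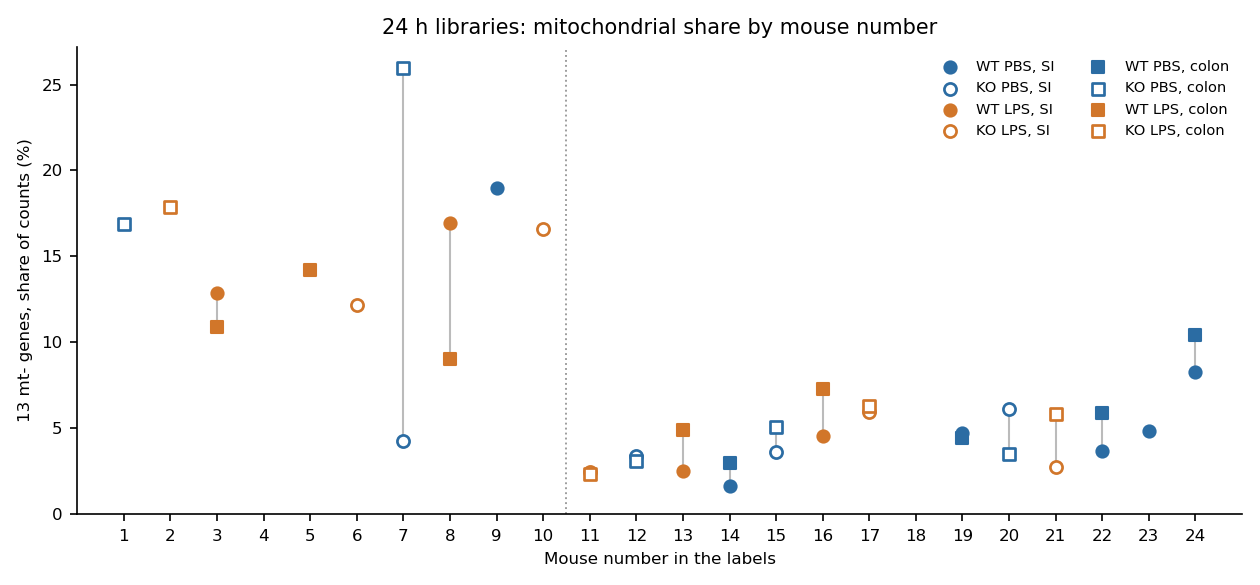
Share of counts (%) on the 13 mt- genes in each 24 h library against the mouse number of the labels, filled WT and open KO, by treatment and region, with a dotted line between mice 10 and 11 and grey lines joining the libraries of 1 mouse. Low-numbered libraries average 13.6% in SI and 15.8% in colon and high-numbered ones 4.19% and 5.17%, and mouse 7 has 25.97% in colon and 4.24% in SI.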

How the data were processed

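RNA was extracted with the RNeasy Plus Micro kit and libraries were made with Smart-seq2, a full-length method without molecular identifiers, per the labels' protocols. The authors deposited whole-number counts per gene symbol for 75 libraries. The submitters' processing notes name Trim Galore 0.4.4, STAR 2.5.3, DESeq2 and GRCm38, while the counting tool, annotation and strand setting are not given in the sources used here. The full name of the reporter is not reported here. The 24 h table holds 25 date-like symbols, none a member.

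Each experiment was fitted once on the deposited counts with edgeR 4.0.16 in R 4.3.3 (filterByExpr, TMM scaling, quasi-likelihood test), with 1 coefficient per group and p-values adjusted by Benjamini-Hochberg over all genes tested, called under 0.05. The division by mouse number was fitted within each region. Shares use each library's total of deposited counts, and CPM the TMM-scaled library size. The members and gene lists were chosen with earlier results of these data known. For each comparison the text names up to 5 called members per direction and genome with the largest change and a mean log2 CPM not under 3, and, where none was called, the 2 nuclear members with the smallest p. Isoforms are named where the comparison has calls, mt- genes without a call mostly by their median, and pathway lists by their counts with examples. Other genes the text names were chosen after their values were seen.

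Alternatives were DESeq2 1.42.0, other size factors, no filter on low counts, mt- genes left out of the scaling, blocks, covariates for mouse number, mice 11 and above only, and each library left out. At 24 h a mouse number shared by colon and SI libraries marks the same animal, and same-numbered libraries had a mean correlation of deviations of 0.121, against -0.002 for others, with 10 of 15 pairs over 0.1. No 2 libraries of a group were duplicates (over 143 pairs, chi-square divided by its degrees of freedom was 17.3 to 397). Except for numbered mice, the labels do not say that replicates came from separate animals, so p-values measure the spread between these samples.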

Additional observations from a re-analysis of the deposited data

Results flagged for a closer look

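In 11 of 112 tests, each of 1 quantity in 1 of the 16 groups of 4 to 6 libraries, 1 library stood apart from its group by Dixon's criterion, where chance gives about 1 in 20. Untreated colon MP female 3, the library with 1340 CPM of epithelial markers, had 334.1 CPM of Cox5a and 620.4 CPM of Uqcrc1. KO PBS colon mouse 20, with 4680 CPM of epithelial markers, had a nuclear share of 2.69% and 399.3 CPM of Uqcrfs1. WT LPS colon mouse 8, with 4710 CPM of epithelial markers, had 738.6 CPM of Uqcrfs1 and 27.65 CPM of Ndufaf2. The part of the epithelial markers in these values was not tested further.

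The other libraries that stood apart were spread over groups. Uqcrfs1 was 639.2 CPM in SI SMP male 1. Ndufa4l2 was 43.9 CPM in KO LPS colon mouse 11 and, as the lowest of its group, 19.4 CPM in WT PBS colon mouse 19. Cox8b was 0.3777 CPM in SI SMP female 2 and 0.3798 CPM in colon SMP male 3, each from 2 counts where the other SMP libraries had none.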

How the results depend on the processing

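Counts below are of members called, with the 97 or 98 tested members as the base. For DESeq2 the share of all genes called is not given, so its counts have no background. SMP against MP gave 19 in colon and 37 in SI. In colon it was 30 with DESeq2, 0 with epithelial and immune covariates, 11 with the smooth muscle covariate, 37 without MP female 3 and 12 to 37 over single libraries left out, and in SI it was 0 with the epithelial and immune covariates and 29 to 44 over single libraries. With those covariates 4 values changed sign: Sdhd was -0.17 in colon and -0.22 in SI, and Cox5a and Cox6b1 in SI were -0.01 and -0.02. The epithelial and immune covariates nearly follow the layer and can hardly be separated from it, so these values decide nothing. LPS at 24 h in WT SI gave 2 and was 5 with DESeq2, 1 without the filter on low counts, 1 with mouse number as covariate, 4 in mice 11 and above and 1 to 2 over single libraries. In WT colon it gave 6 and was 17 with DESeq2, 3 with mouse number as covariate, 3 without the epithelial libraries and 4 to 19 over single libraries. Where no member was called, or for the mouse division no nuclear member, DESeq2 gave 1 for LPS in KO colon, 6 for KO against WT after LPS in colon, 2 for the interaction in colon, 3 for colon against SI at 24 h and 12 nuclear genes for the mouse division in SI. Mice 11 and above gave 1 for KO against WT after LPS in colon and 3 for colon against SI, and leaving out the epithelial libraries gave 5 for the latter. Over single libraries these ranged from 0 to 2, from 0 to 2 and, for the division in SI, from 0 to 3, and the remaining comparisons stayed at 0. The cause of these shifts was not tested. Of 554 values of 31 named results past the threshold, 465 stayed past it in the same direction, 85 no longer passed and 4 changed sign.

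In the untreated and 2 h experiments replicates share only a sex and number. Same-numbered libraries correlated at 0.093 and 0.06 (others at -0.017 and -0.019), with 10 of 30 and 5 of 24 pairs over 0.1. The replicate block gave 15 calls in colon and 40 in SI for SMP against MP. Under it Atp5g1 (1.12, adjusted p = 0.0597 in edgeR) and mt-Cytb (-0.84, adjusted p = 0.0593) in colon no longer passed, and Ndufa4 in SI did (0.64, adjusted p = 0.0324). The mouse block left colon against SI at 24 h at 0. Depth limits the isoforms at a few counts.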
